A study of Homo sapiens with 6 samples.

Results

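The genes described here are NRF2 with its regulators and targets, the glutathione, thioredoxin and peroxiredoxin enzymes, the enzymes that supply NADPH, the aldo-keto reductases and the ferritin chains, 45 genes taken by symbol from the 57914 rows of the deposited tables. All 45 were found; the rule that names them uses no measured value, though earlier results of these data were known when they were chosen. After a filter on low counts 44 could be tested among 17047 genes. The gene left out was GPX2, a glutathione peroxidase, with 7, 1 and 2 counts in ALDH_High and 2, 4 and 1 in ALDH_Low. The cells were A375, a human melanoma line carried in culture, grown in high-glucose DMEM with serum and glutamine and stained with Aldefluor, a dye that becomes trapped and fluorescent in cells with aldehyde dehydrogenase (ALDH) activity. The sorted 5% with the brightest signal gave the 3 ALDH_High libraries, and the sorted 5% with the dimmest signal gave the 3 ALDH_Low libraries. No other treatment or genetic change is named for either group, and unsorted cells were not analysed here. The labels do not say whether the libraries of a group came from separate cultures or sorts, so the p-values measure only the spread between these libraries, which may be technical.

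NRF2, encoded by NFE2L2, is a transcription factor that is held low by KEAP1, an adaptor which presents it to a ubiquitin ligase. Electrophiles and oxidants modify KEAP1, NRF2 then accumulates and, with a small MAF partner, binds antioxidant response elements in genes for glutathione synthesis, thioredoxin, quinone reduction, NADPH supply and iron storage. Glutathione and thioredoxin are the main thiol reductants of a cell, and both are recharged with electrons from NADPH. Much of the regulation of NRF2 acts on the protein, which RNA does not show.

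Each library held between 26692868 and 37830603 counts. ALDH1A3, the enzyme named in the title of the study and used here as the check of the sort, was measured at 682, 1148 and 1086 CPM in ALDH_High and 344, 419 and 403 in ALDH_Low (log2 fold change 1.32, SE 0.19, adjusted p = 0.000734). CPM stands for counts scaled to 1000000 per library, with library sizes scaled by TMM factors, and all fold changes compare ALDH_High with ALDH_Low. ALDH_High library 1 stood apart from the other libraries of its group. It gave the highest of the 3 ALDH_High values for 35 of the 44 members tested (79.5%), against 43.3% of all genes tested, and values without it are given below where they change a call. Of 8 melanocyte lineage markers, 6 were detected, with a summed level of 640 to 872 CPM in ALDH_High and 222 to 245 CPM in ALDH_Low, while MLANA and TYR had at most 3 counts in every library. SOX10 made up most of that sum, at 584 to 809 CPM in ALDH_High and 174 to 209.5 CPM in ALDH_Low, and S100B was also higher. MITF was lower (adjusted p = 0.00667), and PAX3 and PMEL did not pass. All 6 fibroblast markers were detected, with sums of 18.0 to 20 CPM in ALDH_High and 19.8 to 24.7 CPM in ALDH_Low. Of these only PDGFRB passed, as lower (edgeR adjusted p = 0.00693). All 4 epithelial markers were detected, with sums of 10.6 to 16 CPM in ALDH_High and 8.22 to 11.9 CPM in ALDH_Low. KRT14 made up most of the epithelial sums and did not pass, whereas KRT5 was lower (log2 fold change -3.63, edgeR adjusted p = 0.000898). EPCAM and CDH1 had too few counts for the test. The 4 endothelial markers summed to 11.3 to 13.7 CPM in ALDH_High and 2.07 to 2.74 CPM in ALDH_Low, nearly all of the former from KDR. KDR was higher (log2 fold change 3.61, edgeR adjusted p = 5.82e-05). PECAM1 and VWF had point estimates of the opposite sign, -0.77 and -0.19, and did not pass. CDH5 had too few counts for the test. Mitochondrially encoded genes took 1.63, 1.66 and 1.31% in ALDH_High and 3.06, 2.00 and 2.17% in ALDH_Low. The part of these differences in the results below was not tested.

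All members that passed the test were lower in the cells with high ALDH activity. The ferritin chains FTH1 and FTL, haem oxygenase HMOX1, the membrane glutathione transferase MGST1, the autophagy receptor SQSTM1, the aldo-keto reductases AKR1B1, AKR1B10 and AKR1C3, thioredoxin (TXN), its reductase TXNRD1 and the peroxiredoxin PRDX1 made up the 11 lower genes. Their log2 fold changes ran from -2.52 for AKR1B10 to -0.44 for PRDX1. NFE2L2 itself, KEAP1, the enzymes of glutathione synthesis and NQO1 did not pass the test. In bulk RNA fewer cells of a type and less RNA per cell cannot be told apart.

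With edgeR's quasi-likelihood test and Benjamini-Hochberg adjustment over all 17047 genes, 11 of 44 members (25%) were lower at an adjusted p below 0.05. Over all genes, 9.83% were lower by the same rule, 10.8% were higher and 20.6% passed in either direction. No member was higher; 4 were higher at an unadjusted p below 0.05, 1 passed as higher with DESeq2 (PRDX4) and 2 passed with limma on log2 TPM (NQO1 and PRDX4). Of the 33 members that did not pass, the adjusted p ran from 0.0682 to 0.925. The median log2 fold change of the 44 members was -0.092, beside -0.013 over all genes tested, with 17 values above 0 and 27 below. In 17 members (38.6%) the 3 CPM values of one group all lay above the 3 of the other, which is close to the 37.8% of all genes. In 4 of them ALDH_High was the higher group (18.6% of all genes) and in 13 the lower (19.1% of all genes). For any such gene the exact two-sided permutation test gives p = 0.1, the smallest that 3 against 3 allows. The count of lower members was 7 without ALDH_High library 2, 7 without ALDH_High library 3 and 14 without ALDH_High library 1. Of the 11 lower genes, 7 stayed past the threshold in every alternative processing in which they were tested. These 7 are the ones with an adjusted p below 0.01. AKR1B10 is among them but was tested in only 12 alternatives, against 15 for the others. AKR1B10 was not tested where at least 10 counts in every library or a mean TPM of at least 1 was required.

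**Figure D1:**
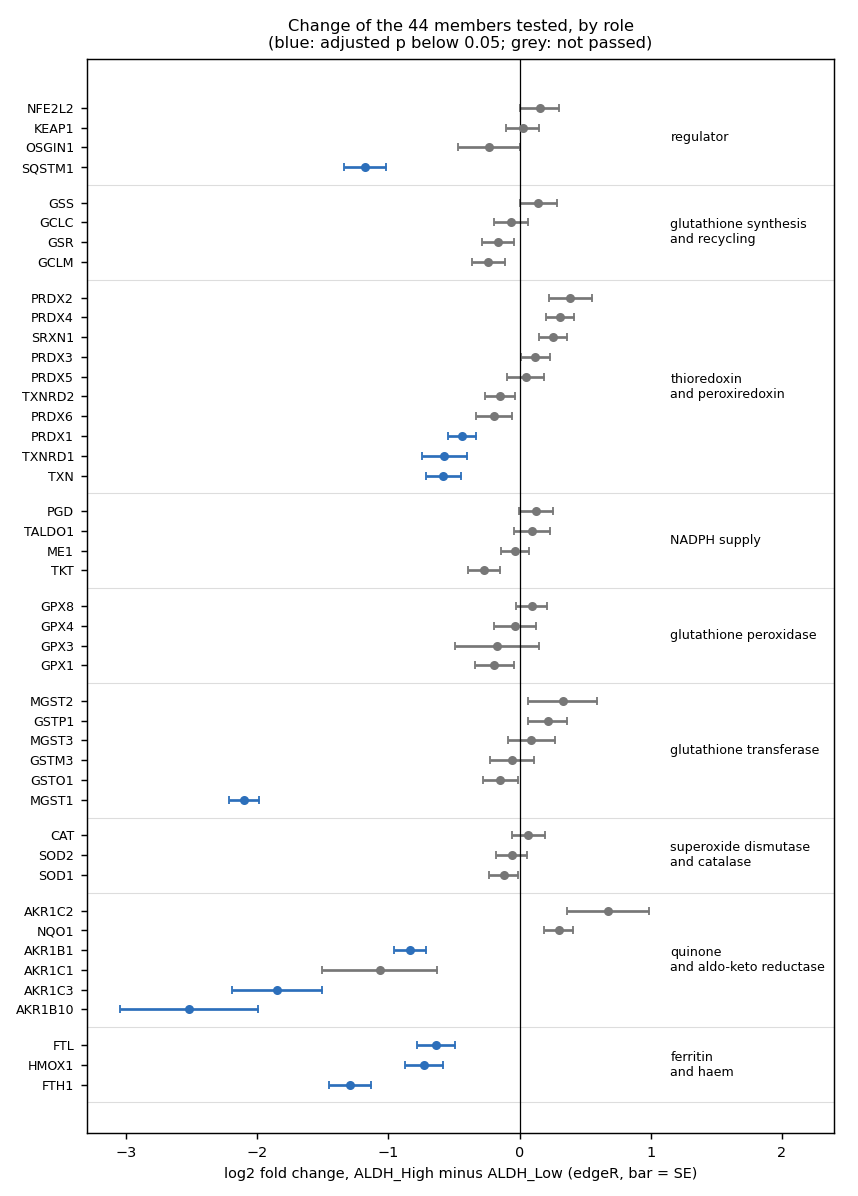
Log2 fold change (ALDH_High minus ALDH_Low, bars 1 SE, n = 3 libraries each) of the 44 members tested, grouped by role. The 11 genes past an adjusted p of 0.05 all lie left of 0, from -2.52 for AKR1B10 to -0.44 for PRDX1.

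The ferritin and haem genes, which store iron and break down haem, were lower in all 3 of 3 cases. FTH1, the ferritin heavy chain that oxidises iron for storage (chr11:61959718-61967634, minus strand in GENCODE 44 on GRCh38), was measured at 1322, 918 and 968 CPM in ALDH_High and 2942, 2308 and 2604 in ALDH_Low. Every ALDH_Low library lay above every ALDH_High library, with means of 1069 ± 221 against 2618 ± 317 CPM (SD, n = 3 each), a 2.45-fold lower level (log2 fold change -1.29, SE 0.16, adjusted p = 0.000316). FTL, the ferritin light chain (chr19:48965309-48966879, plus strand), was measured at 1139, 812 and 829 CPM in ALDH_High and 1577, 1364 and 1382 in ALDH_Low, again with no overlap (log2 fold change -0.64, SE 0.15, adjusted p = 0.0114). HMOX1, the inducible haem oxygenase (chr22:35380361-35394214, plus strand), gave 16.6, 14.2 and 14.4 CPM in ALDH_High and 23.7, 22.4 and 28.8 in ALDH_Low, with ALDH_High values close together and ALDH_Low values higher and more spread (log2 fold change -0.73, SE 0.15, adjusted p = 0.00574). For FTL the adjusted p rose above 0.05 in 3 of 15 alternatives, reaching 0.0604.

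The ferritin chains were also set against each other. On the TPM scale, which divides by transcript length, the ratio of FTH1 to FTL was 1.43, 1.39 and 1.44 in ALDH_High and 2.30, 2.09 and 2.32 in ALDH_Low. The 6 ratios did not overlap between the groups, with means of 1.42 ± 0.0242 and 2.24 ± 0.130 (SD, n = 3 each; exact two-sided permutation p = 0.1). Of the 50-base windows of the FTH1 transcript, 41.3% also occur in other annotated genes, mostly processed pseudogenes, and 18.5% of the FTL windows do. The 25 FTH1 pseudogenes in the table held between 30 and 135 counts per library together, at most 0.129% of the FTH1 count, so nearly all reads counted for this family stood under FTH1.

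**Figure D2:**
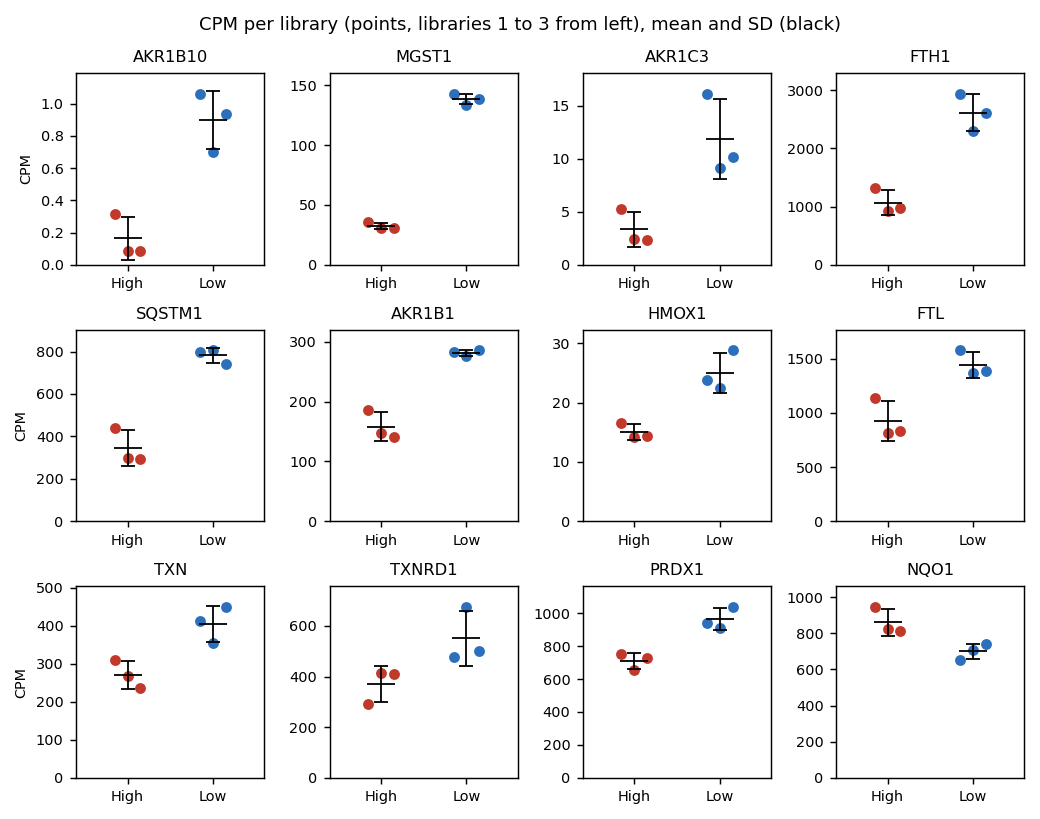
CPM of the 11 lower members and NQO1 in the 3 ALDH_High and 3 ALDH_Low libraries (points). Group means and SD are in black, on linear axes that start at 0. FTH1, MGST1 and SQSTM1 separate clearly. The groups of NQO1, which did not pass the test, do not overlap either, with ALDH_High the higher.

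Among the regulators, 1 of 4 changed. SQSTM1, also called p62, is an autophagy receptor that can bind KEAP1 and is itself an NRF2 target (chr5:179806398-179838078, plus strand). It was measured at 442, 299 and 295 CPM in ALDH_High and 796, 806 and 743 in ALDH_Low, with means of 345 ± 83.5 against 782 ± 33.6 CPM (SD, n = 3 each) (2.26-fold lower, log2 fold change -1.18, SE 0.16, adjusted p = 0.000577). The ALDH_High libraries 2 and 3 were nearly equal, and library 1 lay between them and the ALDH_Low group. NFE2L2 gave 70.4, 83.7 and 96.6 CPM in ALDH_High and 69.3, 68.5 and 87.6 in ALDH_Low (log2 fold change 0.15, SE 0.15, adjusted p = 0.530), and its groups overlapped. KEAP1 gave 129.9, 96.9 and 102 CPM in ALDH_High and 104, 109 and 110.1 in ALDH_Low (log2 fold change 0.02, SE 0.13, adjusted p = 0.925), and 1 ALDH_High library lay above all others while the other 2 lay below. OSGIN1, a small NRF2 target, had a log2 fold change of -0.23 (adjusted p = 0.555).

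The glutathione transferases couple glutathione to electrophiles, and 1 of the 6 changed. MGST1, a trimeric membrane enzyme with transferase and peroxidase activity (chr12:16347142-16609259, plus strand), was measured at 35.5, 30.7 and 30.5 CPM in ALDH_High and 143, 134 and 139 in ALDH_Low. The spread within each group was small against the gap, with means of 32.3 ± 2.81 against 138 ± 4.54 CPM (SD, n = 3 each). The level was 4.30-fold lower, the smallest p among the members (log2 fold change -2.10, SE 0.11, adjusted p = 4.31e-06). None of its 50-base windows occurs in another annotated gene. The related membrane enzymes MGST2 and MGST3 had log2 fold changes of 0.33 (adjusted p = 0.443) and 0.09 (adjusted p = 0.786). GSTP1, the most abundant transferase of this list by TPM, was measured at 655, 486 and 439 CPM in ALDH_High and 429, 456 and 475 in ALDH_Low; its groups overlapped (log2 fold change 0.22, SE 0.15, adjusted p = 0.360). GSTO1 and GSTM3 had log2 fold changes of -0.15 (adjusted p = 0.501) and -0.06 (adjusted p = 0.854).

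Of the 6 quinone and aldo-keto reductases, which reduce quinones, aldehydes and ketones with NADPH, 3 were lower. AKR1B10, an aldo-keto reductase that acts on retinal and other aldehydes (chr7:134527567-134541412, plus strand), had the largest fall of the members but very few reads, 8, 3 and 3 counts in ALDH_High and 41, 21 and 26 in ALDH_Low (log2 fold change -2.52, SE 0.53, adjusted p = 0.00721). In the ALDH_High libraries 2 and 3 it stood at 3 counts. Without ALDH_High library 1 its log2 fold change was -3.298, and on the log2(TPM + 1) scale it was -0.72. Of its 50-base windows 17.2% occur in other genes, and its close copy AKR1B15 held 22, 43 and 20 counts in ALDH_High and 28, 20 and 17 in ALDH_Low, more than AKR1B10 in every ALDH_High library and fewer in every ALDH_Low library, so the size of the AKR1B10 difference is uncertain. AKR1C3, which reduces ketosteroids and prostaglandins (chr10:5035354-5107686, plus strand), gave 5.24, 2.4 and 2.31 CPM in ALDH_High and 16.1, 9.16 and 10.2 in ALDH_Low (log2 fold change -1.85, SE 0.34, adjusted p = 0.00392). AKR1B1, aldose reductase (chr7:134442356-134459284, minus strand), was far more abundant, at 186, 147 and 141 CPM in ALDH_High and 283, 276 and 286 in ALDH_Low, and its ALDH_Low values lay within a narrow range (log2 fold change -0.84, SE 0.12, adjusted p = 0.00108). The groups did not overlap in any of these 3 genes.

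NQO1, the NADPH quinone reductase that is the usual marker gene of NRF2 activity, had a point estimate of the opposite sign and did not pass the test. It was measured at 947, 823 and 814 CPM in ALDH_High and 653, 709 and 738 in ALDH_Low, with means of 861 ± 74.1 against 699.9 ± 43.5 CPM (SD, n = 3 each) (log2 fold change 0.30, SE 0.11, adjusted p = 0.0843). The lowest ALDH_High value exceeded the highest ALDH_Low value. The adjusted p of NQO1 ranged from 0.0138 to 0.197 over the alternatives and was below 0.05 in 3 of 15, all of them limma fits on TPM.

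AKR1C1 and AKR1C2, neighbouring genes on chromosome 10 whose enzymes act on steroids, did not pass. AKR1C1 gave 4.22, 1.47 and 1.17 CPM in ALDH_High and 5.75, 3.64 and 4.74 in ALDH_Low (log2 fold change -1.07, SE 0.44, adjusted p = 0.122), with ALDH_High library 1 inside the ALDH_Low range. AKR1C1 passed as lower with no low-count filter (adjusted p = 0.00495). Without ALDH_High library 1 it was lower too, with a log2 fold change of -1.81 and an adjusted p of 0.00249. AKR1C2 gave 22.9, 10.5 and 11.9 CPM in ALDH_High and 10.6, 6.28 and 11.3 in ALDH_Low (log2 fold change 0.68, SE 0.31, adjusted p = 0.169), so its point estimate had the opposite sign. The TPM ratio of AKR1C2 to AKR1C1 was 5.48, 7.16 and 10.2 in ALDH_High and 1.87, 1.74 and 2.42 in ALDH_Low, with no overlap. The copies are so alike that 47.3% of the 50-base windows of AKR1C2 occur in other genes, with 45.7% of all its windows in AKR1C1, and how reads were divided between the copies bears on every value of this family. The 250 bases before their RefSeq starts are alike too, with 96.5% identity between AKR1C1 and AKR1C2. Identity was 69.9% to 72.4% between AKR1C1 and the starts of AKR1C3. Both genes hold the following 84 bases of an identical stretch of 245 bases upstream of their starts, shown (after the values were seen) because it is the same run letter for letter (RefSeq, GRCh38.p14).
AKR1C1, chr10:4963169-4963252, plus strand: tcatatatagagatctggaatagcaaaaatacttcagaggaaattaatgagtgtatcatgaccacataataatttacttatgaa
AKR1C2, chr10:5004024-5004107, minus strand: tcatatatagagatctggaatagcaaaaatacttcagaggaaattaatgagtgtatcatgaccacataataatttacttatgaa

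Thioredoxin, its reductases and the peroxiredoxins remove peroxides in a relay that draws on NADPH, and 3 of these 10 genes were lower. TXN (chr9:110243810-110256507, minus strand) gave 309, 267 and 236 CPM in ALDH_High and 411, 355 and 450.0 in ALDH_Low (log2 fold change -0.58, SE 0.13, adjusted p = 0.0120). TXNRD1, the cytosolic reductase that recharges it (chr12:104215779-104350307, plus strand), gave 289.7, 412 and 408 CPM in ALDH_High and 475, 676 and 502 in ALDH_Low (log2 fold change -0.57, SE 0.17, adjusted p = 0.0409), with ALDH_High library 1 the lowest of the 6. Without that library TXNRD1 did not pass (log2 fold change -0.41, adjusted p = 0.0781). PRDX1, an abundant cytosolic peroxiredoxin (chr1:45510914-45542732, minus strand), gave 752, 654 and 725 CPM in ALDH_High and 943, 909 and 1039 in ALDH_Low (log2 fold change -0.44, SE 0.11, adjusted p = 0.0165). The groups of all 3 were separate but close. TXNRD1 was past the threshold in 7 of 15 alternatives, TXN in 12 and PRDX1 in 11, and the highest adjusted p was 0.303, 0.0559 and 0.0962 in turn.

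The other peroxiredoxins did not pass. PRDX4, the form of the secretory pathway, was measured at 142, 127 and 131 CPM in ALDH_High and 101, 107 and 115 in ALDH_Low (log2 fold change 0.31, SE 0.11, adjusted p = 0.0682). PRDX2, a cytosolic form, was measured at 255, 175 and 160.4 CPM in ALDH_High and 155, 141 and 155 in ALDH_Low (log2 fold change 0.39, SE 0.17, adjusted p = 0.137). SRXN1, sulfiredoxin, which repairs overoxidised peroxiredoxins, was measured at 140.3, 136 and 145 CPM in ALDH_High and 109, 116 and 128 in ALDH_Low (log2 fold change 0.26, SE 0.11, adjusted p = 0.128). Of the 50-base windows of SRXN1, 90.6% also occur in a gene that overlaps it on the same strand, which had 0 counts in every library. In PRDX4, PRDX2 and SRXN1 the ALDH_High libraries were the 3 highest of the 6, as they were in 18.6% of all genes tested. SRXN1 and GSS lie on chromosome 20, where the median log2 fold change of 356 tested coding genes was 0.28 and 81.7% of them had values above 0; the part of this in the values of the 2 genes was not tested. PRDX3 and PRDX5, both mitochondrial, had log2 fold changes of 0.12 (adjusted p = 0.514) and 0.05 (adjusted p = 0.859). PRDX6 gave -0.19 (adjusted p = 0.374) and the mitochondrial reductase TXNRD2 -0.15 (adjusted p = 0.431). Without ALDH_High library 1, PRDX6 was lower, with a log2 fold change of -0.35 and an adjusted p of 0.0163.

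None of the 4 genes for making and recycling glutathione passed. GCLC, the catalytic subunit of the rate-limiting ligase, gave 29.2, 32 and 34.6 CPM in ALDH_High and 35.6, 35.1 and 29.4 in ALDH_Low (log2 fold change -0.06, SE 0.13, adjusted p = 0.781), and the groups overlapped fully. GCLM, its modifier subunit, gave 49.3, 41.5 and 45.9 CPM in ALDH_High and 49.9, 60.7 and 50.6 in ALDH_Low (log2 fold change -0.24, SE 0.13, adjusted p = 0.227), with all ALDH_High values just below the ALDH_Low ones. Glutathione synthetase (GSS) had a log2 fold change of 0.14 (adjusted p = 0.538) and glutathione reductase (GSR) of -0.17 (adjusted p = 0.394). Summed over the 4 genes the level was 164 ± 6.18 TPM in ALDH_High and 162 ± 10.7 TPM in ALDH_Low (SD, n = 3 each).

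The enzymes that supply NADPH and those that remove superoxide and peroxide showed no call among the 11 tested. TKT, transketolase of the pentose phosphate pathway, gave 998, 815 and 789 CPM in ALDH_High and 1019, 1128 and 992 in ALDH_Low (log2 fold change -0.27, SE 0.12, adjusted p = 0.155). PGD, which makes NADPH in the same pathway, TALDO1, which acts beside transketolase, and ME1, the cytosolic malic enzyme, had log2 fold changes of 0.13 (adjusted p = 0.557), 0.09 (adjusted p = 0.698) and -0.04 (adjusted p = 0.864). GPX1, a cytosolic glutathione peroxidase, gave 363, 264 and 240.0 CPM in ALDH_High and 319, 329.8 and 341 in ALDH_Low (log2 fold change -0.19, SE 0.15, adjusted p = 0.426), and 78.2% of its 50-base windows occur in other annotated genes, most of them in one that overlaps it. Without ALDH_High library 1, TKT and GPX1 each had a log2 fold change of -0.37, with adjusted p of 0.0197 and 0.0182. GPX4, which reduces lipid peroxides, had a log2 fold change of -0.03 (adjusted p = 0.911), GPX3 of -0.18 (adjusted p = 0.760) and GPX8 of 0.09 (adjusted p = 0.643). The superoxide dismutases SOD1 (cytosolic) and SOD2 (mitochondrial) had -0.12 (adjusted p = 0.512) and -0.06 (adjusted p = 0.782), and catalase (CAT) had 0.07 (adjusted p = 0.772).

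Levels between genes were compared as TPM. FTH1 was the most abundant member in both groups, at 2306 ± 319.8 against 5497 ± 705 TPM (SD, n = 3 each), and FTL was next at 1620.1 ± 210.0 against 2455 ± 249 TPM (SD, n = 3 each). The third was NQO1 in ALDH_High and PRDX1 in ALDH_Low: NQO1 stood at 1128 ± 22.2 against 887 ± 38.6 TPM (SD, n = 3 each) and PRDX1 at 1046 ± 68.9 against 1369 ± 49.5 TPM (SD, n = 3 each). MGST1 was at rank 12 of 45 in ALDH_Low and at rank 23 in ALDH_High. All members together summed to 12804 ± 1028 TPM in ALDH_High and 17849.6 ± 932 TPM in ALDH_Low (SD, n = 3 each), and the ferritin chains made up 32.3, 29 and 30.4% in ALDH_High and 47.7, 42.4 and 43.3% in ALDH_Low of that sum. The ferritin and haem genes summed to 3939 ± 529.5 TPM in ALDH_High and 7971 ± 936 TPM in ALDH_Low (SD, n = 3 each), the thioredoxin and peroxiredoxin genes to 3707 ± 111 TPM in ALDH_High and 4304 ± 79.5 TPM in ALDH_Low (SD, n = 3 each) and the quinone and aldo-keto reductases to 1316 ± 45.9 TPM in ALDH_High and 1199 ± 25.6 TPM in ALDH_Low (SD, n = 3 each). In counts, the members took 1.004, 0.860 and 0.862% in ALDH_High and 1.29, 1.22 and 1.24% in ALDH_Low of each library.

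**Figure D3:**
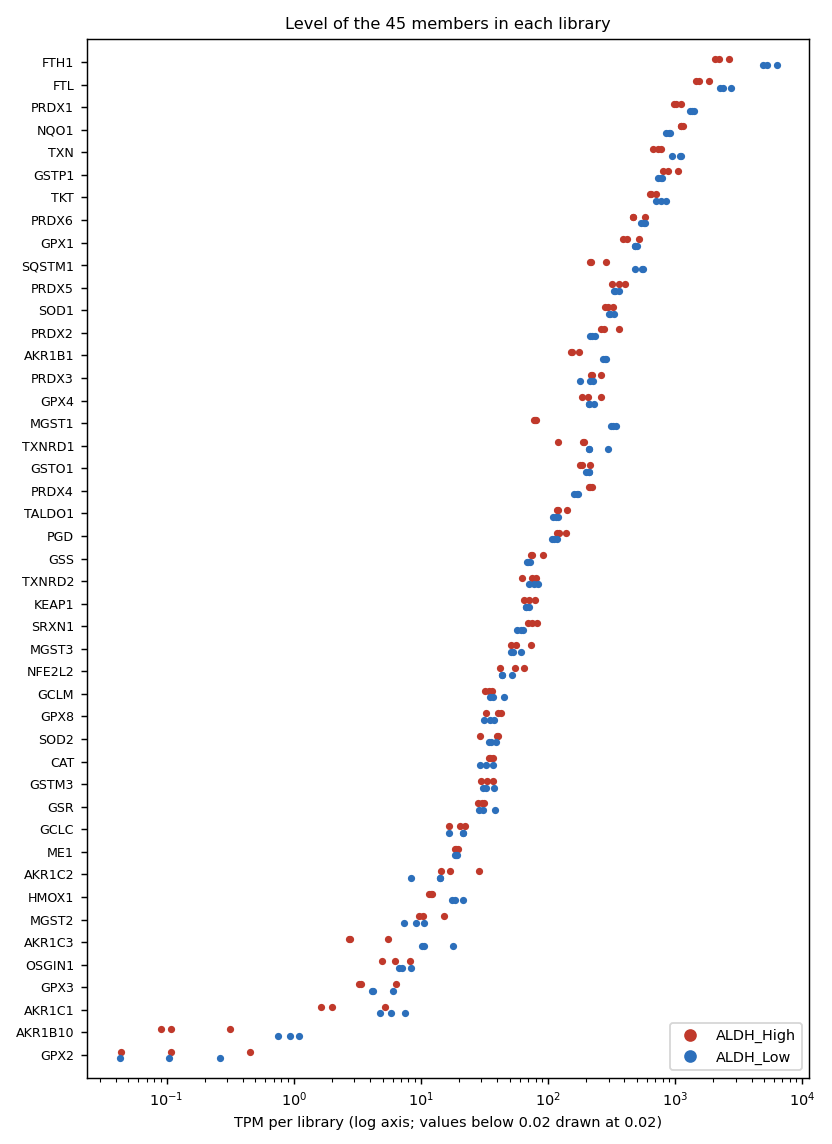
TPM (log axis) of each member in each ALDH_High and ALDH_Low library (points, n = 3 each), ordered by the mean over all libraries. FTH1 and FTL lead in both groups. By group mean, which is not drawn, MGST1 was at rank 12 in ALDH_Low and rank 23 in ALDH_High.

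In 10 of the 11 lower genes ALDH_High library 1 had the highest of the 3 ALDH_High values and so lay nearest to the ALDH_Low group; in TXNRD1 it had the lowest. Among all 1675 lower genes, library 1 was the highest of its group in 47.0% and the lowest in 34.0%. The ALDH_High libraries 2 and 3 lay close together in FTH1, FTL, SQSTM1, AKR1B1, AKR1C3, MGST1, HMOX1 and TXNRD1. The same held for AKR1B10, at only 3 counts in each. These libraries lay further apart in TXN (267 and 236 CPM) and PRDX1 (654 and 725 CPM).

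**Figure D4:**
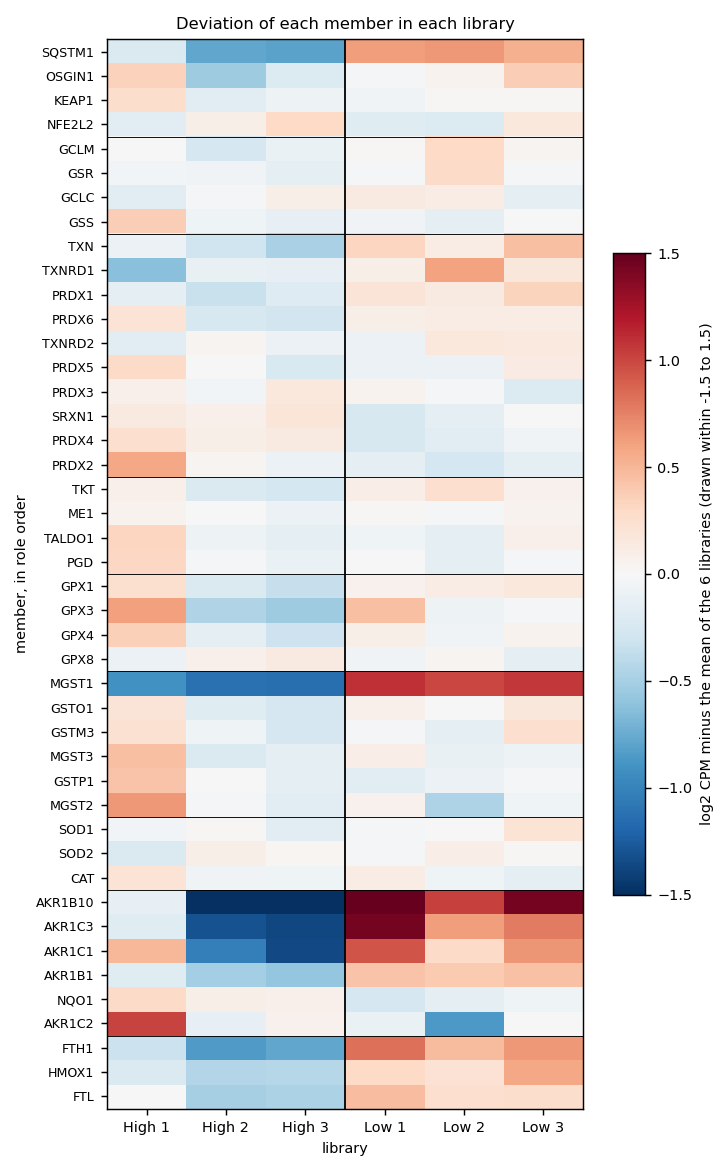
Deviation of each member's log2 CPM from its mean over the 6 libraries, by library (columns) and gene (rows). The 11 lower genes are below their mean in the ALDH_High libraries, least so in library 1 for 10 of them.

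The promoter windows of the members, 250 bases before to 50 after each annotated start, were searched for the core letters of the antioxidant response element, TGACNNNGC, on both strands. A window was found for 36 of the 45 members, and 9 of these genes held a match. By window, 10 of 53 (18.9%) matched, against 13.3% of 35116 windows of all genes. Of the 7 lower members with a window, 2 (28.6%) held a match, TXNRD1 and MGST1, beside 25% of all members with a window. The MGST1 match lies after the RefSeq start. GCLM, GSTP1, KEAP1, ME1, GSTO1 and PGD, which did not pass the test, also held matches, as did GPX2, which was not tested. The letters were thus present on both sides of the threshold. Bases outside these windows were not searched, so a gene without a match may hold the letters elsewhere. The matches of TXNRD1, MGST1, GCLM and GSTP1 are shown with their fixed letters in capitals. These letters are the core of the element that NRF2 is known to bind (RefSeq, GRCh38.p14).
TXNRD1, chr12:104215670-104215698, plus strand: acacgggctaTGACttcGCtgttgtcacc
TXNRD1, chr12:104215761-104215789, minus strand: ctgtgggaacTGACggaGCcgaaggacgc
TXNRD1, chr12:104286920-104286948, minus strand: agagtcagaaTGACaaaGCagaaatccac
MGST1, chr12:16347135-16347163, plus strand: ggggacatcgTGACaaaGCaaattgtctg
GCLM, chr1:93909446-93909474, plus strand: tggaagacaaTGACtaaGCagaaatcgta
GSTP1, chr11:67583736-67583764, plus strand: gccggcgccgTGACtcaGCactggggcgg
The first pair of TXNRD1 matches lie on opposite strands of one window, which is given as a stretch of 121 bases with both matches in capitals.
TXNRD1, chr12:104215659-104215779, plus strand: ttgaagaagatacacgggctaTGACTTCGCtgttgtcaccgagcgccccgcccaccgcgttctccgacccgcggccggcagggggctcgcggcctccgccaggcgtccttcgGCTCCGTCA
A match is a run of letters, not a measured binding site. AKR1B10, GSR, GSS, PRDX6, HMOX1, PRDX1, MGST2, SOD1 and FTH1 had no window in the table used.

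A list of 72 other genes of the same pathways was tested in the same fit, and 69 passed the low-count filter. Of these, 10 were higher (14.5%) and 11 were lower (15.9%), beside 10.8% and 9.83% of all genes, with a median log2 fold change of -0.046. The count of 21 genes past the threshold became 12 without ALDH_High library 2, 11 without ALDH_High library 3, 12 without ALDH_Low library 2 and 10 without ALDH_Low library 3. The 4 higher genes with the smallest p were SOD3, IDH2, GPX7 and OPLAH. SOD3, the secreted superoxide dismutase, was measured at 27, 24.6 and 19.7 CPM in ALDH_High and 0.648, 0.334 and 1.69 in ALDH_Low (log2 fold change 4.77, SE 0.42, adjusted p = 4.3e-05), with low counts in every ALDH_Low library. IDH2, the mitochondrial isocitrate dehydrogenase that makes NADPH, was measured at 43.7, 35.7 and 34.8 CPM in ALDH_High and 17.6, 14.5 and 16.4 in ALDH_Low (log2 fold change 1.23, SE 0.14, adjusted p = 0.000226). GPX7, a peroxidase of the endoplasmic reticulum, and OPLAH, oxoprolinase of the glutathione cycle, had log2 fold changes of 2.89 (adjusted p = 0.000448) and 2.52 (adjusted p = 0.00185). SOD1, SOD2 and the 4 glutathione peroxidases tested among the members had not passed.

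The 4 lower genes with the smallest p in this list were TRIM16, MT2A, AKR1A1 and MAFK. TRIM16, a ubiquitin ligase that works with SQSTM1 and NRF2, was measured at 33.4, 36.3 and 35.3 CPM in ALDH_High and 59.5, 70.9 and 68.5 in ALDH_Low (log2 fold change -0.92, SE 0.12, adjusted p = 0.000389). MT2A, a metallothionein that binds zinc and copper, was measured at 247, 169 and 164 CPM in ALDH_High and 345, 414 and 442 in ALDH_Low (log2 fold change -1.05, SE 0.17, adjusted p = 0.00177). AKR1A1, an aldehyde reductase, and MAFK, a small MAF partner of NRF2, had log2 fold changes of -0.77 (adjusted p = 0.00185) and -0.71 (adjusted p = 0.00498). Among the remaining genes past the threshold, SESN3, SESN1, IDH1, NFE2L3, BACH1 and GSTA4 were higher and TXNL1, GGT1, NQO2, AIFM2, PIR, EPHX1 and GSTK1 were lower. BACH1 is a repressor that competes with NRF2 at its elements. SLC40A1, AKR1C4 and FTMT had too few counts for the test.

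**Figure D5:**
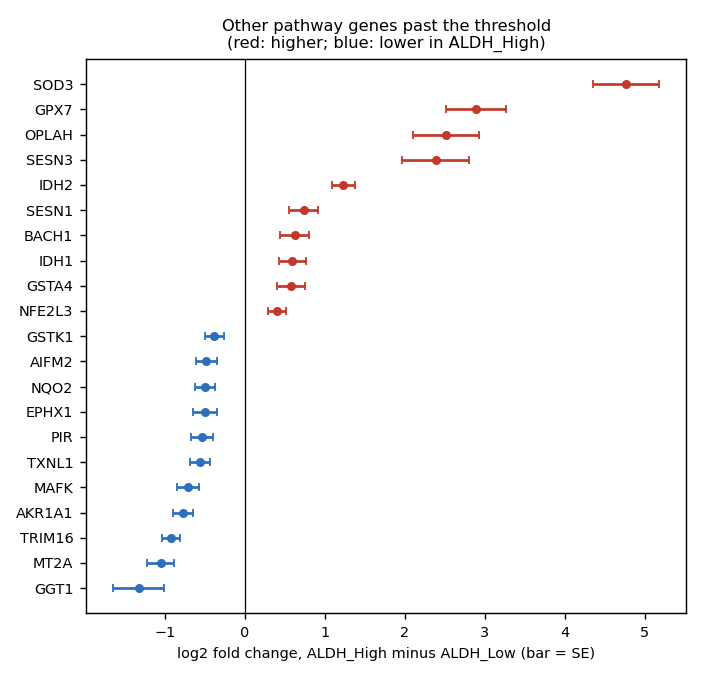
Log2 fold change (ALDH_High minus ALDH_Low, bars 1 SE, n = 3 libraries each) of the 21 other pathway genes past an adjusted p of 0.05. SOD3 lies farthest to the right at 4.77 and GGT1 farthest to the left at -1.32.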

How the data were processed

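Bulk mRNA from 6 libraries of sorted A375 cells was measured with a stranded TruSeq kit from 500 ng of RNA, per the labels' protocols. FastQC 0.11.3, STAR 2.5.1b, HTSeq 0.6.1, DESeq2 and the build GRCh38 are named in the submitters' processing notes, with no role given. The deposited count table holds estimated counts that need not be whole, and these were rounded here; whether counting used strand, and how reads shared by copies were divided, is not given in the sources used here. The deposited TPM table sums to 1000000 in each library, and 133 to 177 genes per library have a TPM above 0 where the rounded count is 0. Of the 11 lower members, 6 overlap a gene on the opposite strand.

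Counts were fitted with edgeR 4.0.16 (filterByExpr with a minimum count of 10, TMM factors, quasi-likelihood F-test, Benjamini-Hochberg over 17047 genes, threshold 0.05). Standard errors were taken from the fold change and F, as |log2 fold change| over sqrt(F). Alternatives used DESeq2 1.42.0, limma 3.58.1 on log2(TPM + 1) and log2(TPM + 0.1), other scalings and filters, a replicate block and each library left out. The scripts were tested on simulated data. Depth ranged from 26692868 to 37830603 counts per library, which makes genes with a few counts, such as AKR1B10, imprecise. Shared 50-base windows were counted on GENCODE 44 transcripts; the identifier of SOD2 has no entry there, and 44 of 45 members matched. Promoter windows came from RefSeq.

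The members and lists were chosen with earlier results of these data known. A further marker list is not reported here. Named were all members, with library values for those past the threshold and for NFE2L2, KEAP1, NQO1, HMOX1, GCLC and GCLM; library values of further members were added after the values were seen. Of the other pathway genes, the 4 higher and 4 lower with the smallest p were described.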

Additional observations from a re-analysis of the deposited data

How the results depend on the processing

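The number of lower members was 11 as reported and 12 with the replicate block (AKR1C1 added, log2 fold change -1.22, adjusted p = 0.0199), 12 with no low-count filter, 9, 9 and 8 in the limma fits, 7 at an adjusted p below 0.01, and 7 to 14 when single libraries were left out (7 without ALDH_High library 2 or 3). Without the members of which at least 20% of the windows are shared, chosen after seeing the data, it was 10. That count depends on the limit, since AKR1C3 (18.65%), FTL (18.49%) and AKR1B10 (17.2%) lay just below it and were kept. The number of higher members was 0 as reported, 0 with the replicate block and 0 with any library left out, 2 with no low-count filter (PRDX2 and AKR1C2), 1 with DESeq2 and 2, 2 and 2 in the limma fits. Of the other pathway genes 21 passed as reported, 23 with the replicate block, 12 with limma on log2(TPM + 1) of genes with TPM above 0, 9 at an adjusted p below 0.01, and 10 to 26 when single libraries were left out. Values near 0 changed sign in some fits: with upper-quartile factors KEAP1 gave -0.026 and PRDX5 -0.00280, and in the limma fits ME1 gave 0.013, 0.014 and 0.013. With single libraries left out the log2 fold change ranged over -0.097 to 0.12 for KEAP1, -0.15 to 0.011 for GCLC, -0.0088 to 0.25 for GSS, -0.083 to 0.18 for PRDX5, -0.044 to 0.19 for TALDO1, -0.053 to 0.016 for ME1, -0.62 to 0.040 for GPX3, -0.23 to 0.11 for GPX4, -0.18 to 0.065 for GSTM3, -0.13 to 0.23 for MGST3, -0.11 to 0.040 for SOD2 and -0.011 to 0.15 for CAT. The cause was not tested. For each gene and library, the deviation of log2 CPM from the mean of its own group was taken. Between same-numbered ALDH_High and ALDH_Low libraries these deviations correlated only weakly, at 0.15, 0.076 and 0.108. By this measure each ALDH_High library correlated best with the ALDH_Low library of its own number. The labels do not say whether a number marks a shared culture or sort, so whether the libraries are pairs cannot be settled. The main fit used no block. With the replicate block 3748 of all genes tested passed, against 3513 without it. The low depth of AKR1B10, AKR1C1 and GPX2 limits what can be said of them.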
